A study of Mus musculus with 10 samples.

Results

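The genes described here are the 8 members of the mouse OAS family *Oas1a*, *Oas1b*, *Oas1c*, *Oas1g*, *Oas2*, *Oas3*, *Oasl1* and *Oasl2*, taken by name out of the 54532 genes of the table. RNA-seq was done on whole neural retinas of 2-month-old BALB/c mice, an albino strain whose retina is sensitive to light. All mice spent 12 hr in the dark and then 1 day either under normal light of 200 lux (NL, n = 5) or under light of 15000 lux (LD, n = 5). The retinas are called by their labels, NL-1, NL-4, NL-5, NL-7 and NL-8, and LD-1, LD-4, LD-6, LD-7 and LD-8. The comparison asked how the level of each gene after light damage differed from that under normal light.

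The OAS proteins (2′-5′-oligoadenylate synthetases) bind double-stranded RNA and join ATP into short chains called 2-5A. These chains are a signal of the antiviral response and are broken down again by other enzymes. The genes are classical targets of interferon, whose receptors act through factors such as STAT2 and IRF9 on a promoter element called ISRE. Not every member makes 2-5A in the mouse: the products of *Oas1a*, *Oas1g*, *Oas2*, *Oas3* and *Oasl2* do, whereas those of *Oas1b*, *Oas1c* and *Oasl1* do not.

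The members lie in 2 places on chromosome 5 (GRCm38). *Oas2*, *Oas3*, *Oas1c*, *Oas1b*, *Oas1g* and *Oas1a* belong to a cluster of 10 genes over 191 kb, whereas *Oasl2* and *Oasl1* lie 11.005 kb apart and 5.79 Mb away from it. Within the cluster, *Oas1c* and *Oas1b* are transcribed away from each other, with 120 bases between their annotated starts. RefSeq promoters (250 bases before to 50 bases after the start, GRCm38.p6) matched 6 of the 8 members, and *Oas1b* and *Oas2* had none. The core of an ISRE, spelled as GAAA, any 2 bases and GAAA again, was found on either strand in 4 of these 6 promoters (*Oas1a*, *Oas1c*, *Oas1g* and *Oas3*) and in 3.44% of all 32851 promoters of the table. The letters TTCNNNGAA of the GAS, another promoter element of the interferon response, were found in 1 of the 6 (*Oas1a*) and in 8.30% of all promoters. No match to either was found in the windows of *Oasl1* and *Oasl2*. The matches of the 4 promoters are shown because they carry what the promoters share, with the ISRE letters in capitals; a run of 16 capitals holds 2 overlapping matches.
*Oas1a*, chr5:120907523-120907552, minus strand: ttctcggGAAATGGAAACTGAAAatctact
*Oas1g*, chr5:120887609-120887638, minus strand: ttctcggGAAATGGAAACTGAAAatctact
*Oas1c* and *Oas1b*, chr5:120812606-120812635, plus strand: ttcccggGAAATGGAAACTGAAAgtcccat
*Oas3*, chr5:120777715-120777744, minus strand: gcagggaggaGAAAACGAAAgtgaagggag

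The windows of *Oas1a* and *Oas1g* were identical over their 30 bases, and the capitals ended 4 and 2 bases before the RefSeq starts of these genes. The third window lies between the 2 divergent genes, where the same 16 letters read in the direction of *Oas1b* and ended 6 bases before its annotated start, against 98 bases from the start of *Oas1c*. The run of 16 letters was found in 7 of the 32851 promoters, which belonged to 5 genes: *Oas1a*, *Oas1c*, *Oas1g*, *Apol9a* and *Apol9b*. *Apol9a* and *Apol9b*, apolipoprotein L genes of chromosome 15 and no OAS genes, rose by 2.29 (SE 0.19, adjusted p = 9.81e-06) and 3.22 (SE 0.23, adjusted p = 4.46e-06) on the log2 scale after LD. Their means were very low in NL, at 0.0279 and 0.0385 FPKM, and were 0.524 and 1.17 FPKM in LD. Of all genes tested, 4.13% were called higher. Whether these 2 genes share reads with each other was not checked. A match is a run of letters and not a measurement of binding.

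The OAS family as a whole was at a low level under NL and far higher after LD. The 8 members summed to 1.61 ± 0.255 FPKM (SD, n = 5) in NL, with 1.42 to 2.05 per retina, and to 46.5 ± 7.58 FPKM (SD, n = 5) in LD, with 35.5 to 54.4 per retina, a ratio of the means of 28.8. FPKM is the number of fragments scaled by gene length and library size. In each of the 8 members the lowest LD value exceeded the highest NL value, which was so in 11.8% of the 24508 genes tested; the opposite pattern, with all LD values lowest, was seen in 10.6% of them. Of the 8 members, 7 reached 0.1 FPKM in 5 or more retinas, the filter on low values, and were tested in limma on log2(FPKM + 0.1). These 7 were called higher (adjusted p under 0.01 and over 2-fold), against 4.13% of all genes tested. *Oas1g* and *Oasl1* were under 0.1 FPKM in all 5 NL retinas, so that they passed the filter only through LD. *Oas3* did not pass it. The median log2 fold change of the 7 was 3.61, beside a median of -0.01 over all genes tested; it is the value of *Oasl1* and moves with the pseudocount, as *Oasl1* was at 1.20 with a pseudocount of 1 and at 5.73 with one of 0.01. A log2 fold change here is on the log2(FPKM + 0.1) scale, which understates the change of genes with low values.

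**Figure D1:**
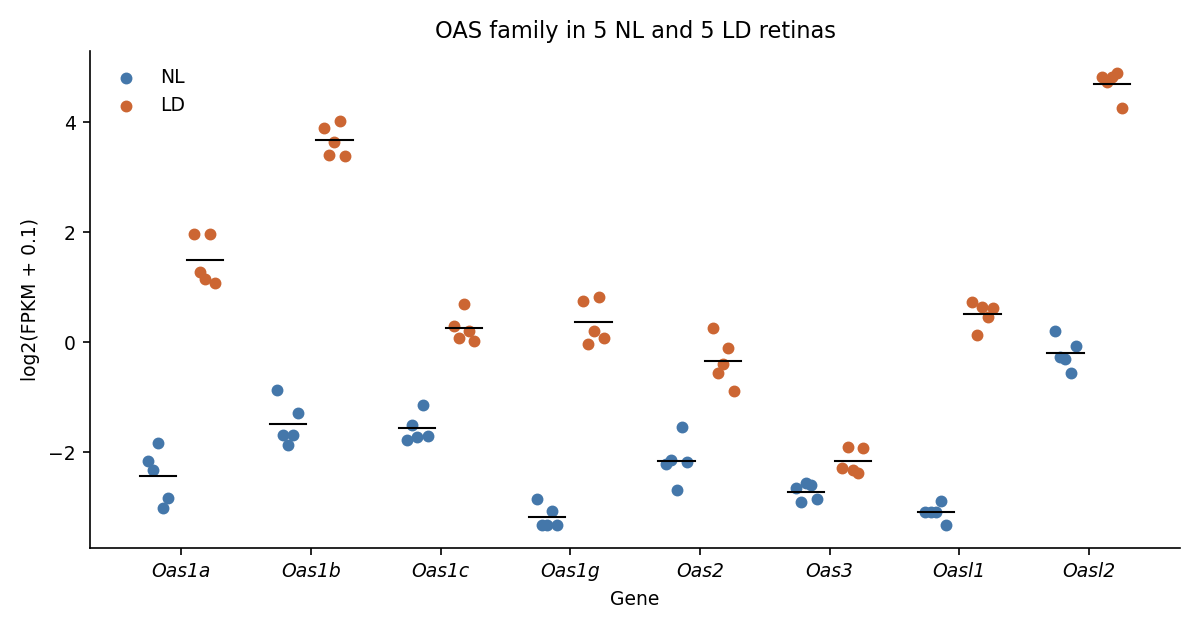
Level of each OAS gene in log2(FPKM + 0.1) (y axis) in the 5 NL and the 5 LD retinas; each point is 1 retina and each bar a group mean. The LD points lie above the NL points in each of the 8 genes, with the smallest gap in *Oas3* and the largest log2 fold changes, 5.15 and 4.90 at the pseudocount of 0.1, in *Oas1b* and *Oasl2*.

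Among the members that make 2-5A, *Oas1a* and *Oas1g* are neighbours in the cluster and rose together after LD. *Oas1a* (chr5:120896256-120907521) was at 0.124, 0.0999, 0.183, 0.0250 and 0.0411 FPKM in NL-1, NL-4, NL-5, NL-7 and NL-8, and at 3.83, 2.33, 2.13, 3.82 and 2.03 FPKM in LD-1, LD-4, LD-6, LD-7 and LD-8. The lowest LD retina was thus far above the highest NL retina, and LD-1 and LD-7 stood above the other LD retinas. Its log2 fold change was 3.92 (SE 0.28, adjusted p = 4.43e-06), the 54th largest of the 1013 genes called higher. It rested on 19 reads in NL and 604 in LD, and the ratio of the reads at equal depth was 31.2 (95% counting interval 19.8 to 52.2). *Oas1g* (chr5:120876142-120887613) was at 0.0400 and 0.0201 FPKM in NL-1 and NL-7, where it had 2 reads and 1 read, and at 0 in the other 3 NL retinas. In LD it was at 1.59, 0.885, 1.05, 1.67 and 0.960 FPKM, from 42 to 91 reads, and LD-1 and LD-7 were again the highest. Its log2 fold change was 3.54 (SE 0.22, adjusted p = 1.74e-06), and the ratio of the reads was 107 (95% counting interval 36.3 to 521). The interval is wide because NL held 3 reads in all.

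*Oas1a* and *Oas1g* share sequence, so that their separate levels are uncertain. Of the 50-base windows in the annotated transcripts of *Oas1a*, 57.6% occurred also in *Oas1g*, and with windows of 100 bases 40.9% of those of *Oas1a* and 31.3% of those of *Oas1g* were shared with another gene. How the counting treated reads that match both genes is not given in the sources used here. If each shared read was counted once, the summed reads of the pair do not change with how such reads are split between the 2 genes. The pair had 22 reads in NL (2 to 7 per retina) and 931 in LD (131 to 267 per retina). In *Oas1c* the share found in another gene was 15.1% of the 50-base windows and 4.23% of the 100-base windows. At 100 bases it was 0% in *Oas1b*, *Oas2*, *Oas3*, *Oasl1* and *Oasl2*.

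*Oas2* and *Oas3* encode the larger synthetases, OAS3 being the one that responds best to long double-stranded RNA. *Oas2* (chr5:120730333-120749853) was at 0.116, 0.127, 0.0553, 0.243 and 0.122 FPKM in the NL retinas and at 1.11, 0.576, 0.663, 0.829 and 0.444 FPKM in the LD retinas. The groups did not overlap, but the highest NL value, in NL-7, and the lowest LD value, in LD-8, were closer than in the other members tested. It rose by 1.82 on the log2 scale (SE 0.27, adjusted p = 5.94e-04). This was the only call among the members that was lost with the replicate number as a block (1.70, adjusted p = 0.0178), and with a pseudocount of 1 its change of 0.60 was under 2-fold. *Oas3* (chr5:120753098-120777661) was at 0.0595, 0.0333, 0.0697, 0.0666 and 0.0384 FPKM in NL and at 0.104, 0.167, 0.101, 0.0932 and 0.165 FPKM in LD. These values came from few reads, 5 to 10 in each NL sample and 15 to 26 in each LD sample. The difference of the means of log2(FPKM + 0.1) was 0.55, with an exact permutation test, two-sided, giving p = 0.00794, the smallest that 5 against 5 retinas allow. The ratio of the reads was 2.37 (95% counting interval 1.63 to 3.50). Without the filter *Oas3* was tested but not called (adjusted p = 0.0394). *Oas3* thus lay lowest of the members in LD and had the smallest read ratio of the 8.

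Of the cluster members that make no 2-5A, *Oas1b* had the largest log2 fold change in the family at the pseudocount of 0.1. With a pseudocount of 0.01, *Oas1g* (6.12) and *Oasl1* (5.73), which had few reads in NL, lay above *Oas1b* (5.57). OAS1B is known as the flavivirus resistance factor of the mouse, and the annotation lists its gene as a polymorphic pseudogene because common laboratory strains carry a premature stop codon. *Oas1b* (chr5:120812635-120824163) was at 0.446, 0.213, 0.173, 0.213 and 0.311 FPKM in NL and at 14.8, 10.5, 12.5, 16.1 and 10.4 FPKM in LD. All 5 LD retinas were above 10 FPKM and no NL retina reached 0.5 FPKM. Its log2 fold change was 5.15 (SE 0.20, adjusted p = 6.71e-08), the 12th largest of the 1013 genes called higher. The ratio of the reads was 47.3 (95% counting interval 36.6 to 62.1). The RNA level says nothing of the protein, which was not measured here.

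*Oas1c* (chr5:120800194-120812514), the divergent neighbour of *Oas1b*, was at 0.194, 0.254, 0.205, 0.353 and 0.210 FPKM in NL and at 1.13, 0.964, 1.52, 1.06 and 0.915 FPKM in LD. The NL values overlapped those of *Oas1b*, whereas in LD every value of *Oas1c* was below every value of *Oas1b*. It rose by 1.83 on the log2 scale (SE 0.19, adjusted p = 5.36e-05), the 452nd largest of the genes called higher, and by 0.76, under 2-fold, with a pseudocount of 1. The level of *Oas1b* minus that of *Oas1c*, in log2(FPKM + 0.1), was 0.09 ± 0.56 (SD, n = 5) in NL and 3.41 ± 0.32 (SD, n = 5) in LD. The difference between these differences was 3.32 (two-sided exact permutation test, p = 0.00794), and it was 2.67 with a pseudocount of 1 and 3.41 with a pseudocount of 0.01. The 2 genes with starts 120 bases apart were therefore at like levels under NL and far apart after LD.

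The 4 other genes of the cluster did not follow the members as a group. *Oas1h* had no read in NL and 31, 9, 6, 23 and 9 reads in LD, and it passed the filter only through LD. Its log2 fold change was 2.17 (SE 0.32, adjusted p = 5.80e-04), a call lost with a pseudocount of 1 (0.47, under 2-fold) and with the replicate block (2.37, adjusted p = 0.0101). Set against the level that 3 reads per NL retina would give, it was at least 4.95-fold higher. *Oas1e* was at 0.246 ± 0.0482 FPKM in NL and 0.180 ± 0.108 FPKM in LD (SD, n = 5; log2 fold change -0.38, adjusted p = 0.338). *Oas1f* had no read in NL and 4 and 1 reads in LD-1 and LD-7, and *Oas1d*, known from the ovary, had no read in any retina. *Oas1e*, which lies between *Oas3* and *Oas1c*, thus passed no test, with overlapping groups. Genes on the opposite strand overlap *Oas1c*, *Oas1e*, *Oas2* and *Oasl1*, and these had at most 4 reads in a retina.

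**Figure D2:**
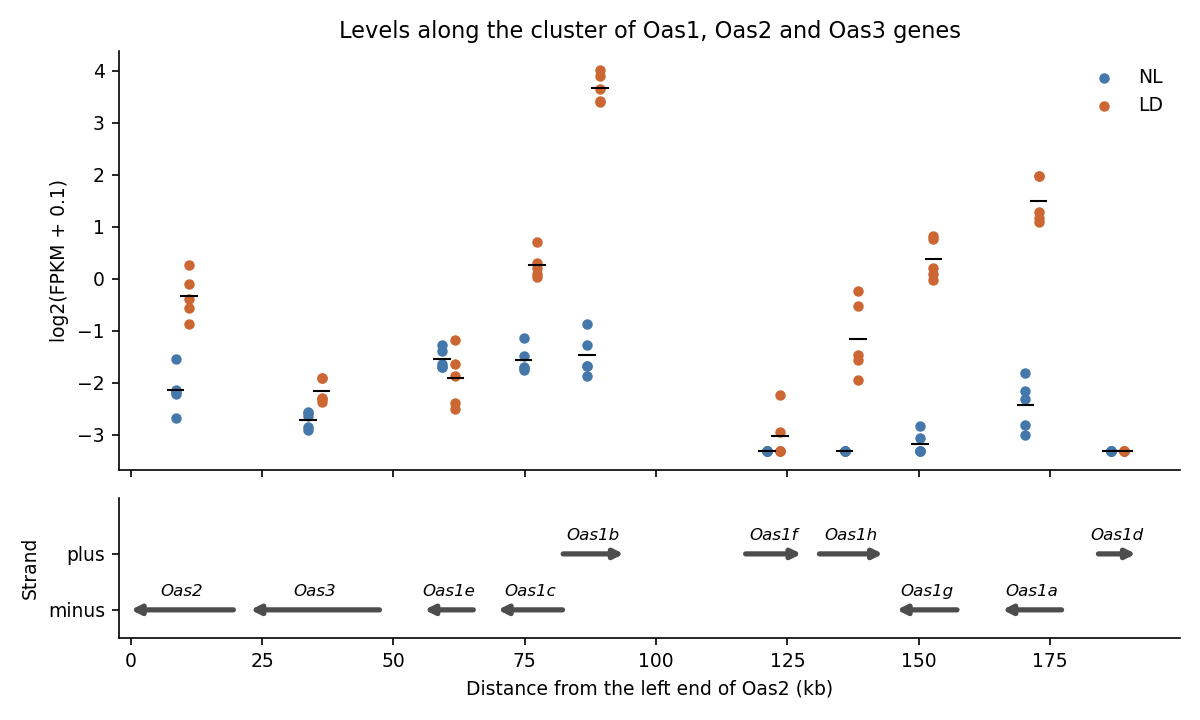
Levels in log2(FPKM + 0.1) (upper panel, points are retinas, bars are means of 5) of the 10 genes along the *Oas1*, *Oas2* and *Oas3* cluster, placed at their distance in kb from the left end of *Oas2*, with each gene's direction of transcription as an arrow (lower panel). *Oas1b* stood highest in LD with a mean of 12.9 FPKM, whereas *Oas1e* overlapped between NL and LD and *Oas1d* was at 0 reads.

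The 2 OAS-like genes outside the cluster rose as well. OASL proteins carry ubiquitin-like domains at their end; OASL2 still makes 2-5A, whereas OASL1 does not and is known as an inhibitor of *Irf7* translation. *Oasl2* (chr5:114896936-114912234) was at 1.06, 0.731, 0.711, 0.576 and 0.857 FPKM in NL, the highest level of the family there, and at 28.1, 26.4, 28.1, 29.5 and 19.2 FPKM in LD. The LD retinas lay close together apart from LD-8, which was the lowest. Its log2 fold change was 4.90 (SE 0.16, adjusted p = 1.70e-08), the 17th largest of the genes called higher. With 554 reads in NL and 18787 in LD it was the most precisely measured member, and the ratio of the reads was 33.3 (95% counting interval 30.6 to 36.3). *Oasl1* (chr5:114923240-114937915) was at 0.0179, 0.0181, 0.0189, 0.0361 and 0 FPKM in NL, from 0 to 2 reads per retina. In LD it was at 1.57, 1.00, 1.46, 1.28 and 1.45 FPKM, from 53 to 100 reads. It rose by 3.61 on the log2 scale (SE 0.17, adjusted p = 2.49e-07), and the ratio of the reads was 78.1 (95% counting interval 33.2 to 242). Which of the 2 OAS-like genes rose more could not be settled: the change of *Oasl2* minus that of *Oasl1* was 1.29 with the pseudocount of 0.1, 2.72 with a pseudocount of 1 and -0.68 with a pseudocount of 0.01.

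The order of the members by level in FPKM, which is per length and depends on the gene lengths used, differed between NL and LD. The places of *Oas1a* and *Oas1g* are uncertain because these genes share sequence. In LD, *Oasl2* was above *Oas1b*, *Oas1b* above *Oas1a* and *Oas1a* above *Oasl1*, in each case without overlap of the 5 retinas. *Oasl1*, *Oas1g* and *Oas1c* followed at means of 1.35, 1.23 and 1.12 FPKM, and their ranges overlapped. *Oas2* was below *Oas1c* within each of the 5 retinas, although the ranges overlapped, and *Oas3* was below *Oas2* without overlap. In NL only *Oasl2* stood apart from its neighbour in the order, and all lower neighbours overlapped.

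In shares of the summed level, *Oasl2* made up 48.6% ± 6.42 in NL and 56.6% ± 3.58 in LD, and *Oas1b* 16.4% ± 4.09 and 27.6% ± 2.12 (SD, n = 5). *Oas1c* fell from 15.5% ± 5.04 to 2.43% ± 0.494 and *Oas2* from 8.35% ± 4.59 to 1.53% ± 0.344 of the sum, although both rose in level. *Oas1a* held 5.99% ± 4.45 in NL and 6.0% ± 1.17 in LD. The shares depend on the lengths used. The table gives *Oasl2* a length of 6374 bases, which covers all its exons, against 3123 bases for its longest coding transcript. With the longest coding transcript of each gene, *Oasl2* made up 70.9% and *Oas1b* 18.5% of the sum in LD, and of the reads without any division by length 79.1% and 12.1%. *Oasl2* and *Oas1b* were the leading members in LD on each of these scales.

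**Figure D3:**
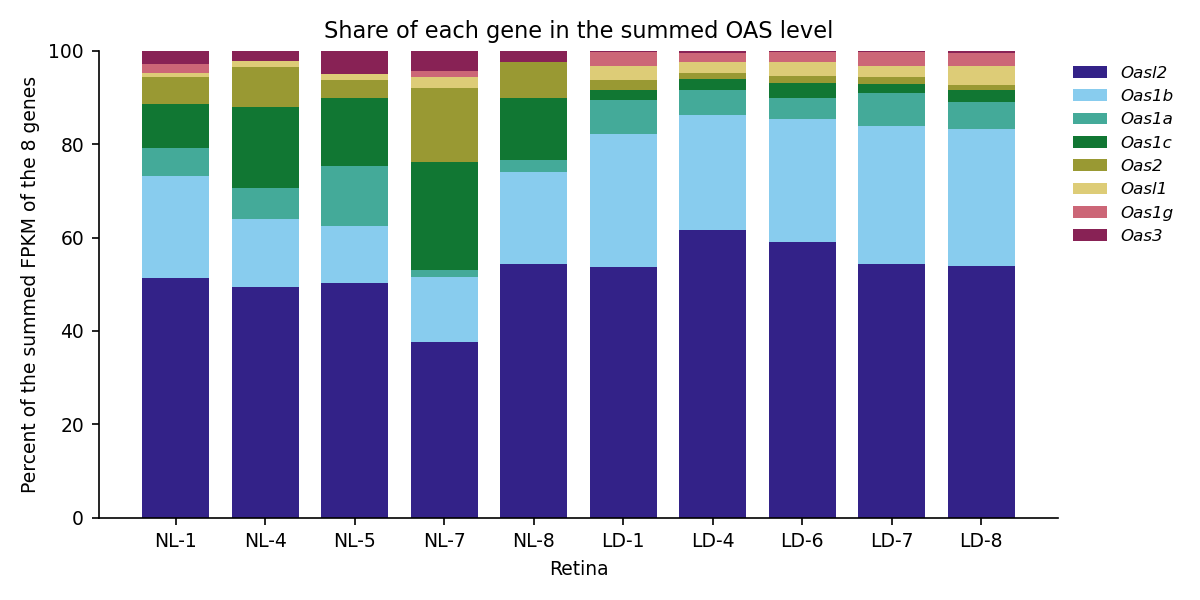
Percent of the summed FPKM of the 8 members (y axis, from 0 to 100) held by each member in each of the 10 retinas (x axis). *Oasl2* and *Oas1b* together fill most of each LD bar, and the parts of *Oas1c* and *Oas2*, 15.5% and 8.35% on average in NL, are thin in LD.

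The members did not vary in the same way among the LD retinas. LD-1 and LD-7 held the 2 highest LD values in 5 of the 8 members (*Oas1a*, *Oas1b*, *Oas1g*, *Oas2* and *Oasl2*), a pattern seen in 21.6% of all genes tested and in 25.6% of the genes called higher. The mean of LD-1 and LD-7 over that of the other 3 LD retinas was 1.77 in *Oas1a*, 1.72 in *Oas2*, 1.69 in *Oas1g* and 1.39 in *Oas1b*. It was 1.17 in *Oasl2*, 1.10 in *Oasl1*, 0.963 in *Oas1c* and 0.683 in *Oas3*. The ratio of *Oas3* rests on only 15 to 26 reads per LD retina. In *Oasl2*, LD-1 was barely above LD-6 (28.110 against 28.066 FPKM). LD-8 was the lowest LD retina in 5 of the 8, and in 17.8% of all genes tested and 33.2% of the genes called higher. LD-1 and LD-7 were also much alike over all genes, with a chi-square per gene of 3.41 between their reads; NL-5 and NL-7 (2.71) and LD-4 and LD-6 (2.52) were further such pairs, whereas the other 17 pairs within groups lay at 10.9 to 38.5. The labels do not tie these retinas to one another. The paper calls the retinas biological replicates, and where 2 of them share more than the others do, p-values are too small. With each close pair averaged, the same 7 members were called, and so they were without LD-1 and LD-7.

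**Figure D4:**
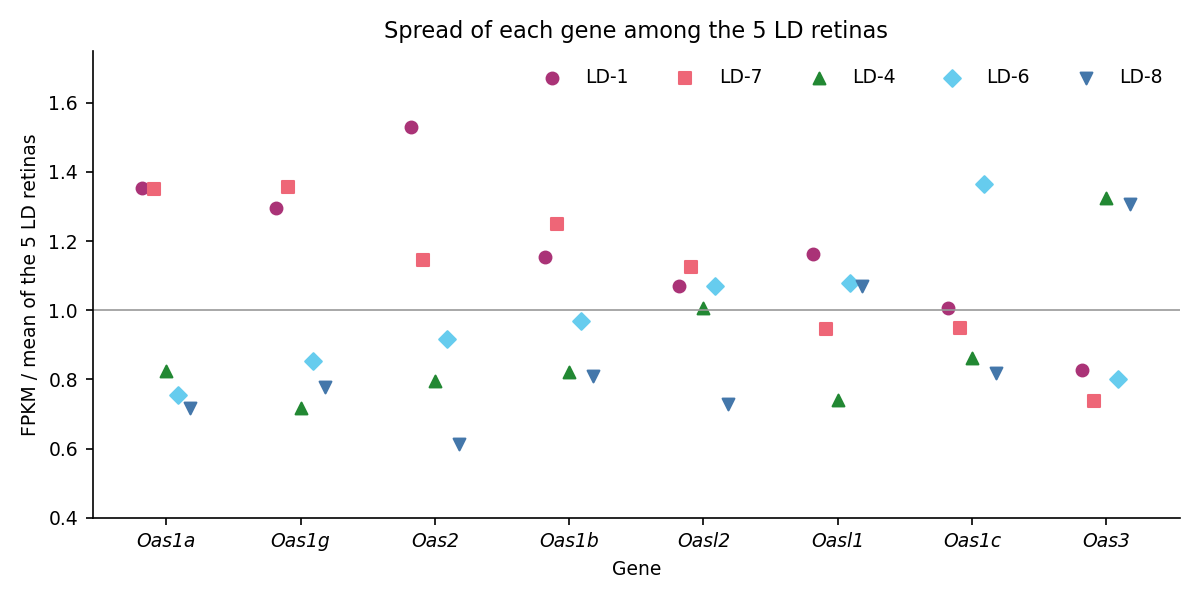
FPKM in each LD retina divided by the mean of the 5 LD retinas (y axis, linear, not starting at 0) for the 8 members, with a symbol for each retina and a line at 1. LD-1 and LD-7 lie above the line in *Oas1a*, *Oas1g*, *Oas2*, *Oas1b* and *Oasl2*, and below it in *Oas3*.

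Markers of some cell types moved with the groups and are given beside these results. The 4 rod genes reported, *Gnat1*, *Pde6b*, *Nrl* and *Cnga1*, were lower in LD (4 of 4 called, beside 2.37% of all genes tested called lower). Their summed level was 3172 to 3930 FPKM in NL and 379 to 868 FPKM in LD. Of 4 Muller glia genes, *Glul*, the gene of glutamine synthetase, fell from 711 ± 94.8 to 165 ± 8.77 FPKM (SD, n = 5; adjusted p = 1.99e-07), and the other 3 were not called. None of the 12 genes of bipolar, amacrine and ganglion cells, of the 5 endothelial, the 6 pigment epithelium and the 2 blood genes was called. Of 10 genes of microglia and macrophages, 7 were called higher, beside 4.13% of all genes tested. The summed level of the 10 was 18.8 to 29.9 FPKM in NL. It was 89.3, 55.7, 56.4, 76.9 and 39.1 FPKM in LD-1, LD-4, LD-6, LD-7 and LD-8. LD-1 and LD-7 were thus the highest and LD-8 the lowest in this sum, of which *C1qa* alone was a large part. The mean of *C1qa* in LD was 37.3 FPKM, beside 63.5 FPKM for the sum. Other lists had other orders. In LD-1, LD-4, LD-6, LD-7 and LD-8, the rod genes summed to 822, 379, 414, 666 and 868 FPKM. The endothelial genes summed to 48.4, 81.7, 80.9, 49.0 and 51.6 FPKM there. The defining microglial genes *P2ry12* and *Tmem119* did not pass the test (adjusted p = 0.122 and 0.528). Of the 6 genes of monocytes and neutrophils only 2 passed the filter, and neither was called. Among those not tested, *Ly6c2* had 0 reads in NL and 43 in LD and *Ccr2* had 2 and 54 (ratio of the reads 26.5, 95% counting interval 6.99 to 224). In both, each LD retina was above each NL retina, which was so in 11.8% of the genes tested. None of the 5 lymphocyte genes reported passed the filter, so that none was tested. The summed levels of the 2 lists were at most 0.955 and 0.163 FPKM. The part of these cells in the OAS levels was not tested. In a bulk sample, fewer cells of a type and less RNA per cell cannot be told apart. The paper describes no obvious degeneration in retinal sections after the same light exposure, and significant degeneration after a longer one. Whether the retinas sequenced here had lost rods was not tested.

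The genes of 3 proteins that limit 2-5A signalling differed little between NL and LD. *Abce1*, also known as a ribosome recycling factor, was at 12.7 ± 0.778 FPKM in NL and 14.8 ± 0.754 FPKM in LD (SD, n = 5), higher by 0.23 on the log2 scale (SE 0.05, adjusted p = 0.00857). A positive change that passed an adjusted p of 0.01 with any fold was found in 9.3% of all genes tested. *Pde12* and *Akap7*, whose products degrade 2-5A, were at -0.02 (SE 0.07, adjusted p = 0.865) and -0.04 (SE 0.08, adjusted p = 0.742). None of the 3 genes was called in either direction, beside 6.51% of all genes tested, and the median of their log2 fold changes was -0.02.

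The genes of the interferon pathway upstream of the OAS family were taken from lists. None of the 10 interferon genes listed passed the filter. *Ifnb1*, the gene of interferon beta, had 0 reads in NL and 3 in LD, and *Ifna1*, *Ifna2* and *Ifnl3* had no read in any retina, so that a change was not detectable at this depth. Of 6 receptor genes, *Ifnar2* (1.12, SE 0.16, adjusted p = 4.41e-04) and *Ifnlr1* (1.34, SE 0.27, adjusted p = 0.00374) were called higher, beside 4.13% of all genes tested. *Il10rb* (0.87, adjusted p = 0.00253) and *Ifngr2* (0.44, adjusted p = 0.00169) passed the adjusted p but were under 2-fold. *Ifnar1*, the other chain of the type I receptor, was at 0.08 (adjusted p = 0.332) and *Ifngr1* at -0.09 (adjusted p = 0.293). The call of *Ifnlr1* was lost when NL-1, LD-4, LD-6 or LD-7 was left out, with log2 fold changes of 1.30, 1.22, 1.26 and 1.29. With both LD-4 and LD-6 left out neither *Ifnar2* nor *Ifnlr1* was called.

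Of the 5 signal transducers reported, *Stat2* and *Irf9*, whose products belong to the factor that binds the ISRE, rose by 2.06 and 2.89 on the log2 scale. The kinase genes *Jak1*, *Jak2* and *Tyk2* were at -0.07, 0.11 and 0.03 and did not pass the test. Of 6 further interferon regulatory factors 4 rose, with *Irf7*, the factor whose translation OASL1 limits, at 2.41 ± 0.773 FPKM in NL and 37.4 ± 11.2 FPKM in LD (SD, n = 5; log2 fold change 3.90, SE 0.27, adjusted p = 3.01e-06). *Irf1* rose by 3.52, *Irf8* by 3.24 and *Irf5* by 1.29 (0.64, under 2-fold, with a pseudocount of 1). *Irf2* (0.74, adjusted p = 9.82e-04) and *Irf3* (-0.32, adjusted p = 0.00215) passed the adjusted p but were under 2-fold, and *Irf3* was lower in LD. The 3 feedback inhibitors *Usp18*, *Socs3* and *Socs1* rose by 5.08, 4.46 and 3.10. Of all genes tested, 4.13% were called higher, the share to set beside the counts of these lists.

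Other proteins that bind double-stranded RNA or related nucleic acids form the list closest to the OAS family in function. Of its 7 genes, 6 were called higher, beside 4.13% of all genes tested. The protein kinase gene *Eif2ak2* rose by 3.58, the helicase sensor genes *Ddx58*, *Ifih1* and *Dhx58* by 3.82, 3.65 and 2.61, *Tlr3* by 2.15 and *Zbp1* by 3.97 on the log2 scale. *Zbp1* was under 0.1 FPKM in all 5 NL retinas and passed the filter only through LD. *Adar*, which edits double-stranded RNA, was at 15.1 ± 0.492 FPKM in NL and 26.1 ± 0.777 FPKM in LD (SD, n = 5; log2 fold change 0.79, SE 0.04, adjusted p = 2.16e-07), under 2-fold. The median log2 fold change of the list was 3.58. A log2 fold change above 3 among the genes called, as *Oas1a*, *Oas1b*, *Oas1g*, *Oasl1* and *Oasl2* had, was reached by 0.588% of all genes tested. With a pseudocount of 1, *Oas1a* (1.78), *Oas1g* (1.13) and *Oasl1* (1.20) were under 3 and *Oas1b* (3.43) and *Oasl2* (3.92) were not.

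**Figure D5:**
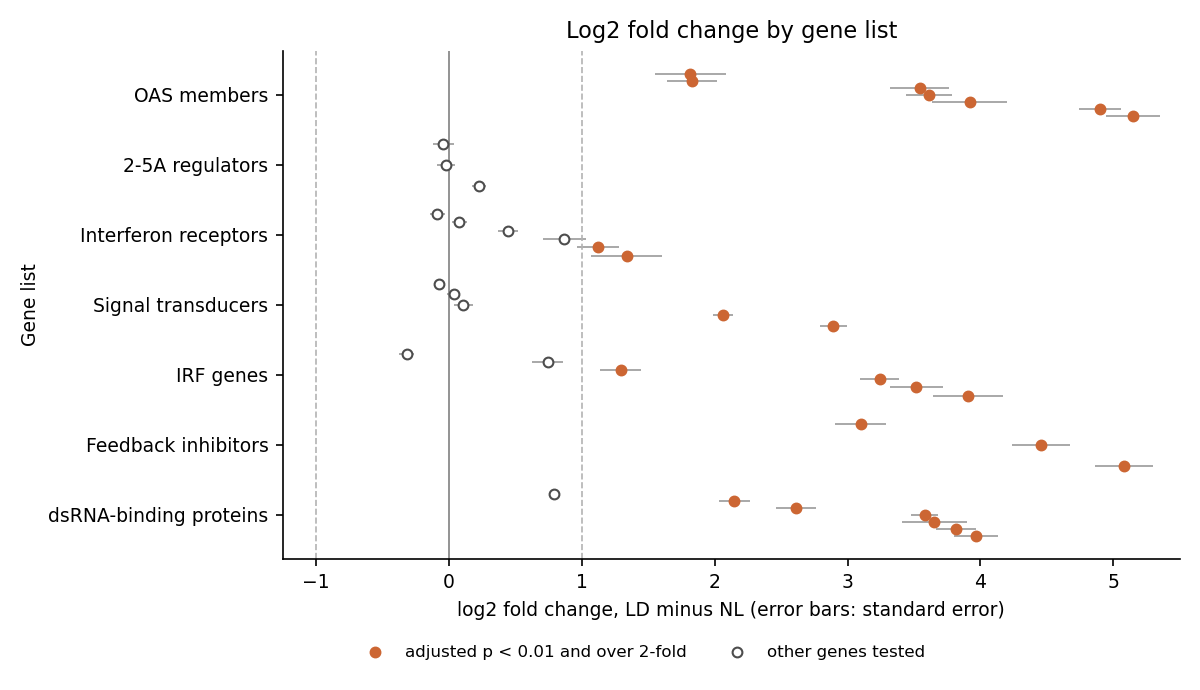
Log2 fold change of LD against NL with its standard error (x axis) for each gene tested, grouped by list (y axis); filled points passed an adjusted p of 0.01 and 2-fold, open points did not, and dashed lines mark 2-fold. The 7 OAS members tested lie between 1.82 and 5.15, whereas the 3 regulators of 2-5A lie left of the 2-fold line.

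Genes whose pattern was most like that of the OAS family were ranked by Pearson's r with the mean of the 7 members tested over the 10 retinas, in log2(FPKM + 0.1), among 16227 genes. *Ube2l6* (0.998), *Skap2* (0.997), *Socs3* (0.997), *Dhx58* (0.996) and *Ifit1* (0.996) came first. All 10 retinas share the split into NL and LD, so that a gene with a large difference between the groups has a high r. After the group means were subtracted, which leaves the spread within groups, *Phf11b* (0.971), *Gm43268* (0.969), *Dnaic2* (0.967), *Rogdi* (0.963) and *Gm20045* (0.951) came first. No gene was in both sets of 5. *Phf11b* rose by 2.59 after LD (adjusted p = 1.51e-04), whereas *Rogdi* was at -0.30 (adjusted p = 0.00193), under 2-fold. *Dnaic2* (-1.24, adjusted p = 0.0209), *Gm43268* (-0.24, adjusted p = 0.247) and *Gm20045* (-0.32, adjusted p = 0.169) were also at negative values and were not called. These r values are the highest of 16227, over retinas that include close pairs.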

How the data were processed

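Per the labels, RNA was taken from retinas with Trizol, and the study's methods give paired reads of 150 bases; the submitters' processing notes list Bowtie2 2.0.6, TopHat2 2.0.9 and build mm8. The positions in the deposited table are those of GRCm38: 53499 of 54409 identifiers found in GENCODE M21 had the same position. The authors deposited FPKM values per gene and retina, scaled by a library size with a factor per retina (0.951 to 0.968 in NL, 1.04 to 1.07 in LD). FPKM times length gave whole reads for 100% of values (tolerance 0.01), from 18965090 to 26832535 reads per retina. Intervals and floors (3 reads per retina) cover counting error only.

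The test of LD against NL was limma 3.58.1 (R 4.3.3) on log2(FPKM + 0.1), with an intensity trend and Benjamini-Hochberg adjustment over the 24508 genes that reached 0.1 FPKM in 5 or more retinas; 1595 (6.51%) were called at the study's thresholds, adjusted p under 0.01 and over 2-fold, 1013 higher and 582 lower (2.37%). Tested on simulated data of this comparison over 24508 genes, the fit recovered 189 of 200 changed genes with 3 false calls. The changed genes were drawn from genes with more reads than *Oas1c*, *Oas1g*, *Oas2*, *Oas3* and *Oasl1* had on average. The recovery therefore does not cover these members. The retinas were simulated as independent, without the close pairs. Their spread beyond counting error was set alike for all genes and not taken from the data, so the recovery may be too favourable for genes with more spread. Single genes were compared by exact permutation over retinas (scipy 1.17.1, numpy 2.4.6, pandas 2.3.3, Python 3.11.15; plots by matplotlib 3.10.9). The members and lists were chosen with earlier results of these data known. Some genes of these lists are not reported here. Genes named are the members, the other cluster genes, the 2-5A and interferon lists, and the 5 genes most like the members by each of 2 measures; *Apol9a* and *Apol9b* were named after their promoter match was seen. Alternatives changed the pseudocount, filter, scaling, trend, test, threshold, block and retinas, or added the presence of *Xist* as a covariate. *Xist* was above 1 FPKM in some of the retinas and not in others. With this covariate 7 members were called.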

Additional observations from a re-analysis of the deposited data

Results flagged for a closer look

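*Oas1f* in LD-1 stood apart from the other LD retinas, at 0.111 FPKM against 0 to 0.0297 FPKM. The value rests on 4 reads. It was the 1 case among 20 groups of 5 retinas examined, in which chance gives about 1 case.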

How the results depend on the processing

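The 7 members tested kept their direction under every alternative run, and 169 of their 172 values kept their side of the threshold. The difference of *Oas3* kept its direction in its 13 runs, and its exact permutation p stayed under 0.05. The groups did not overlap in *Oas3*. Leaving out 1 retina, another pseudocount or dropping the factor per retina, which was lower in NL than in LD, could not change that. Such runs therefore add no support. The number called was 7 in each run that left out 1 retina, 5 with a pseudocount of 1 (*Oas1c* at 0.76 and *Oas2* at 0.60, under 2-fold), 6 with the replicate block and 4 with a filter of 1 FPKM, which leaves fewer genes tested. Over all genes, 816 were called with a pseudocount of 1 (504 higher), 664 were called higher with the filter of 1 FPKM, and 6818 passed an adjusted p of 0.05 with no minimum fold (3543 higher). The retinas of 1 number were not shown to be paired (correlation of their deviations -0.09 to 0.07); the replicate block on the 8 retinas of shared numbers gave 808 calls (550 higher), with *Oas2* at 1.70. Leaving out 1 retina gave 1379 to 1603 calls.

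Of the receptor genes, 0 were called with a pseudocount of 1 or without LD-4 and LD-6, 1 with the filter of 1 FPKM, with or without the replicate block on those 8 retinas, with the closest pairs averaged or without LD-1 and LD-7, 4 without a minimum fold, and 1 to 2 with 1 retina left out. Of the 6 interferon regulatory factors, 3 in place of 4 were called with a pseudocount of 1 or the filter of 1 FPKM. Of the 2-5A regulators, 1 passed without a minimum fold. *Pde12* turned positive without the factor per retina (0.11), on the 8 retinas of shared numbers with or without the block (0.025) and without LD-4 and LD-6 (0.010), and lay between -0.061 and 0.0027 with 1 retina left out. *Akap7* turned positive without the factor (0.089) and without LD-4 and LD-6 (0.042), and lay between -0.079 and 0.014 with 1 retina left out, the highest without NL-8. The cause of these shifts was not tested. The 2 alternatives that leave out 2 LD retinas were added after the data were seen. Without the factor per retina the median of all genes moved from -0.01 to 0.11. Depth limits *Oas3*, *Oas1f* and the interferon genes, which had few reads.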
